A study of Mus musculus with 4 samples.

Results

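Chst2, a sulfotransferase gene, was 6.01-fold lower in Ets1-deleted than in control group 2 innate lymphoid cells (ILC2), while Fut4, Fut7, St3gal4, St3gal6 and Gcnt1, genes that build and cap selectin ligands, read higher. B4galt1 read lower, and Selplg, the gene of the protein that carries the glycan, differed by 1.13-fold. The 8 genes described here are Chst2, Fut4, Fut7, St3gal4, St3gal6, Gcnt1, B4galt1 and Selplg, out of 18194 genes on the array with a probe set of their own. They are a set of pathway genes put together around Chst2, which was chosen by its measured difference between Ets1-deleted and control arrays. Their values in that comparison are therefore a description, given without a test. Each gene is read from its brightest probe set, the one with the highest mean over the 4 arrays, and its other probe sets are given as checks.

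RNA came from ICOS-positive ILC2 of C57BL/6 mice grown for 2 weeks on OP9-DL1, stromal cells made to present the Notch ligand DL1, in medium with the cytokines IL-7 and IL-33. ILC2 are lymphocytes of tissues that secrete type 2 cytokines and carry no antigen receptor of T or B cells. Littermate controls gave 2 arrays and Ets1-deleted mice gave the other 2; Ets1 codes for a transcription factor of the ETS family. All 4 samples share the strain, the culture and the sort. How Ets1 was deleted, in which cells, and the age and sex of the mice are not stated in the labels. Values are probe set intensities on a linear scale, with array medians between 96.5 and 97.7. A gene was tested where its mean reached 97.4 intensity units, the median of all probe sets, which left 10873 genes. Differences are log2, Ets1-deleted minus control, ± SE from limma, with n = 2 arrays per group.

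Selectins are lectins on leukocytes, platelets and endothelium that slow passing leukocytes by holding sugar structures on their surface. The structure they bind, sialyl Lewis X, is a lactosamine chain capped with sialic acid and fucose, and it is mounted on branched O-glycans of carrier proteins such as PSGL-1. Lymphocytes that home to inflamed tissue use selectin ligands to roll on vessel walls. Sulfate on N-acetylglucosamine is part of only some selectin ligands, and whether ILC2 carry it was not measured here.

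Ets1 itself checked the labels. Its brightest probe set read 1272 and 1231 in the controls against 138 and 180 in the Ets1-deleted arrays, and all 4 of its probe sets were lower, by log2 differences between -3.51 and -2.78. Of 13 ILC2 marker genes on the array, 0 lay under the limit of 97.4 on all arrays, so markers of the labelled cell type were measured.

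The promoters of 4 of the genes are shown because Ets1 binds DNA words built on GGAA and these genes differed most in either direction. They are Chst2 and B4galt1, the 2 lower genes that have a RefSeq window, and the 2 genes furthest above the controls, St3gal6 and Fut4. Each sequence is the 250 bases before the annotated start, 5' to 3' on the gene's strand, from RefSeq on GRCm38.p6. Capitals mark GGAA and its reverse complement TTCC. All 4 genes lie on the minus strand, Chst2 at chr9:95407271-95407520, B4galt1 at chr4:40853985-40854234, St3gal6 at chr16:58524254-58524503 and Fut4 at chr9:14752123-14752372. St3gal6 has 2 annotated starts, and the one farther upstream is shown.
Chst2: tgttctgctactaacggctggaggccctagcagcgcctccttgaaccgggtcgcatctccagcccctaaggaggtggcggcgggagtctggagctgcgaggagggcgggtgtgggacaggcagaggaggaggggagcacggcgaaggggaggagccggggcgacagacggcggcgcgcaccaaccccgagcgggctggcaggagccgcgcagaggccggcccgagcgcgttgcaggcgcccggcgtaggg
B4galt1: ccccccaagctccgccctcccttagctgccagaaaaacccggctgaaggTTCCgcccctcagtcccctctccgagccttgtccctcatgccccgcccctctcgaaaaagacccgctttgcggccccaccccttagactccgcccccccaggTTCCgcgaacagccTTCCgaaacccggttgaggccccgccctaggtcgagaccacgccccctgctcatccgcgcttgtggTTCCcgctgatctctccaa
St3gal6: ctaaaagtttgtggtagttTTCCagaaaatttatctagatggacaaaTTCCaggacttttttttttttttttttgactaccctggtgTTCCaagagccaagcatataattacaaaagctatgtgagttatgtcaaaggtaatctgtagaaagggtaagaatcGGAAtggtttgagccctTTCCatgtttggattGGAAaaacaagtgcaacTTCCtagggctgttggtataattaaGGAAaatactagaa
Fut4: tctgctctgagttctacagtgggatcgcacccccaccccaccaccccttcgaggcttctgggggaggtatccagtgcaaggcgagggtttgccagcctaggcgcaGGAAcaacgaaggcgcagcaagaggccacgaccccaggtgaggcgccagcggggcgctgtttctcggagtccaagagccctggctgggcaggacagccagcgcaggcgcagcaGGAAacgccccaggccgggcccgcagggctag

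The window before Chst2 held 0 matches to GGAA on either strand, while 93.4% of all 32851 promoter windows of that length held at least 1. B4galt1 held 4 matches, Fut4 held 2, and the A- and T-rich window of St3gal6 held 8 (4 at its other annotated start), against a median of 3 over all windows. The longer word CCGGAA, which contains GGAA, was in 12% of all windows and in 0 of those of the 7 genes with a RefSeq window. Another such word, AGGAAG, was in 29.5% of all windows. It occurred 1 time in the printed St3gal6 window, 0 times at the other St3gal6 start and in 0 of the other 3 printed here. Among the genes whose windows are not printed, St3gal4 held AGGAAG 1 time. With starts numbered from the farthest upstream, Gcnt1 held it 3 times each at starts 2 and 3 and 0 times at start 1. Fut7 held it 1 time at start 2 and 0 times at start 1. A match is a run of letters and not a measured binding site, and a window without one says nothing of what binds there or elsewhere in the gene.

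Chst2 encodes an enzyme of the Golgi that puts sulfate on N-acetylglucosamine. Its brightest probe set read 2533 and 2565 intensity units in the controls and 429 and 419 in the Ets1-deleted arrays. The groups lay far apart, and the arrays within each differed little. The difference was -2.59 ± 0.11, and 0.212% of tested genes had one of greater size. The remaining probe sets of Chst2 were near the floor of the array and moved less. The second read 99.9 and 99.9 in the controls against 95.7 and 96.1, a difference of -0.059, and the third read 107 and 110 against 71.3 and 67.8, a difference of -0.64. The low value of Chst2 therefore rests on 1 bright probe set, and the mean over all 3 was -1.10. Where each probe set lies in the transcript was not analysed here.

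**Figure D1:**
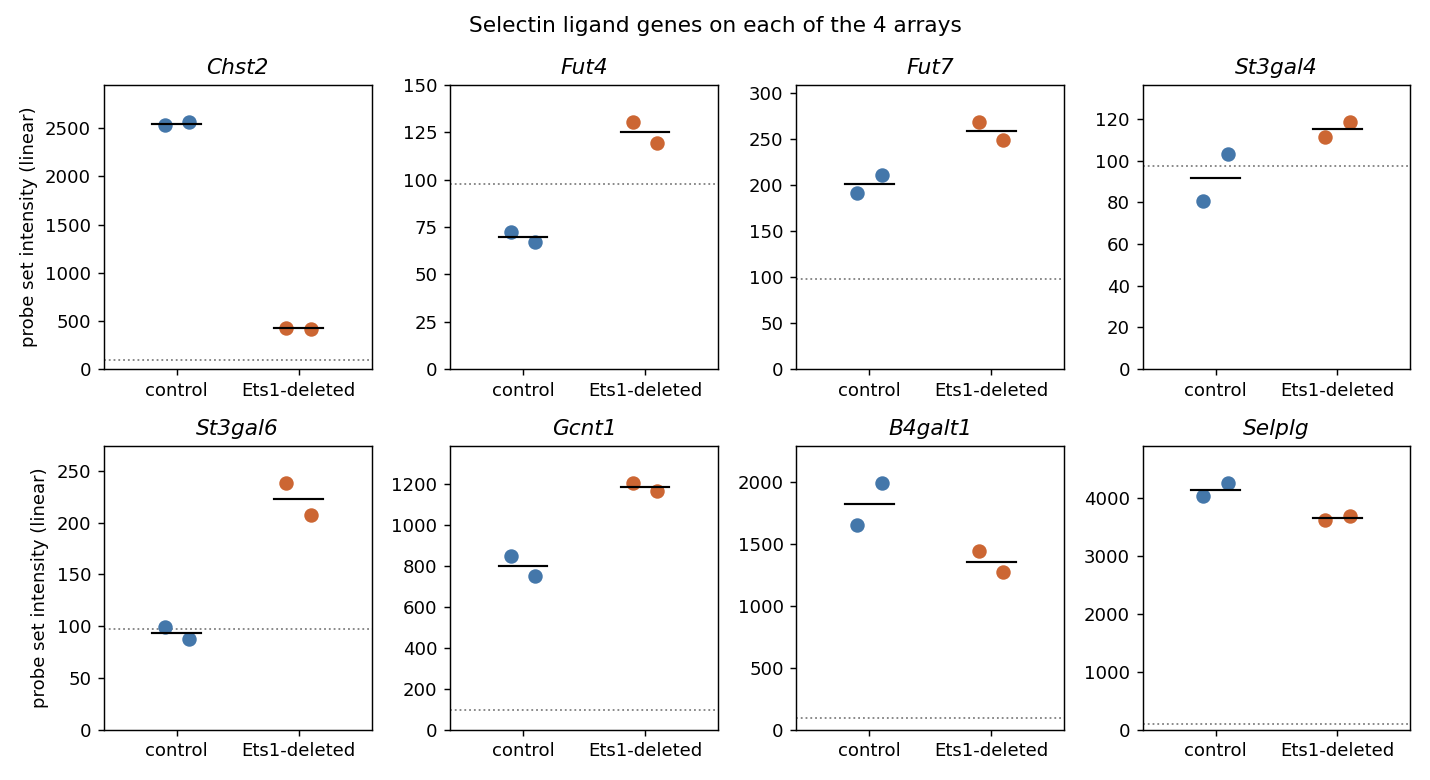
Linear probe set intensity (y axis, from 0) of the brightest probe set of each of the 8 genes on the 2 control (blue) and 2 Ets1-deleted (orange) arrays; black bars are group means and the dotted line is the limit of 97.4 for testing. The means of Chst2 are 2549 and 424 and those of St3gal6 93.4 and 223. The groups do not overlap for any of the 8 genes, as for 62.6% of all tested genes.

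The fucosyltransferase genes Fut4 and Fut7 encode the enzymes that add the fucose of sialyl Lewis X in leukocytes, Fut7 being the main one for selectin binding. Fut7 read 192 and 211 in the controls and 269 and 249 in the Ets1-deleted arrays. Both Ets1-deleted values lay above both control values, by a difference of 0.36 ± 0.11. Fut4 read 72.1 and 67.2 in the controls and 130 and 120 in the Ets1-deleted arrays. Its mean stayed under the limit, so Fut4 is the 1 gene of the 8 left out of the fit of tested genes. The other 7 were in that fit, but their values are given as a description and no call is read from them. The Fut4 difference was 0.84 ± 0.09, with the SE taken from a fit without the limit, and its second probe set gave 0.52. Only the Ets1-deleted arrays of Fut4 lay above the limit.

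The sialyltransferase genes St3gal4 and St3gal6 encode enzymes that cap the chain with sialic acid before fucose is added, and both contribute to selectin ligands on leukocytes. St3gal6 read 98.9 and 87.9 in the controls against 238 and 208 in the Ets1-deleted arrays. This was the largest difference upward among the 8 genes, at 1.26 ± 0.12 or 2.39-fold. St3gal6 has 5 probe sets, of which the second gave 0.53 and the dimmer ones 0.047, 0.0054 and -0.028, so the mean over them was 0.36. St3gal4 read 80.7 and 103 in the controls against 112 and 119. Its control arrays lay farther apart than the controls of any other gene of the 8, and the upper one came near the Ets1-deleted values, so that the difference of 0.33 ± 0.13 was 0.16 without control 1 and 0.51 without control 2.

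Control means of Fut4, St3gal4 and St3gal6 were under the limit, near the level at which these values flatten out. St3gal4 and St3gal6 therefore reached the limit only through their Ets1-deleted arrays. When the 5th percentile of each array was subtracted first, the difference came to 2.10 for Fut4, 2.17 for St3gal6 and 0.79 for St3gal4. Values under 16 after subtraction were set to 16, and the Fut4 controls lay near that bound, so the 2.10 depends on it. The direction was the same and the size depended on how the floor was treated.

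Gcnt1 and B4galt1 build the chain on which the cap is placed. Gcnt1 encodes the core 2 enzyme that opens the branch on O-glycans, a step that PSGL-1 needs to bind P-selectin. It read 849 and 752 in the controls against 1206 and 1168, a difference of 0.57 ± 0.11 with clear separation of the groups. The second Gcnt1 probe set, also bright, read 623 and 587 against 1254 and 1280, a difference of 1.07. B4galt1 encodes the galactosyltransferase that extends the chain to lactosamine. It went the other way, from 1651 and 1993 in the controls to 1443 and 1269, with a difference of -0.42 ± 0.13. The spread between its controls was wide, and without control 2 the B4galt1 difference was -0.29, against -0.56 without control 1.

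Selplg encodes PSGL-1, the carrier on which these glycans meet P-selectin. It read 4033 and 4268 in the controls and 3631 and 3688 in the Ets1-deleted arrays. The difference of -0.18 ± 0.11 was the least of the 8 genes, and 50.9% of tested genes had a greater one.

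**Figure D2:**
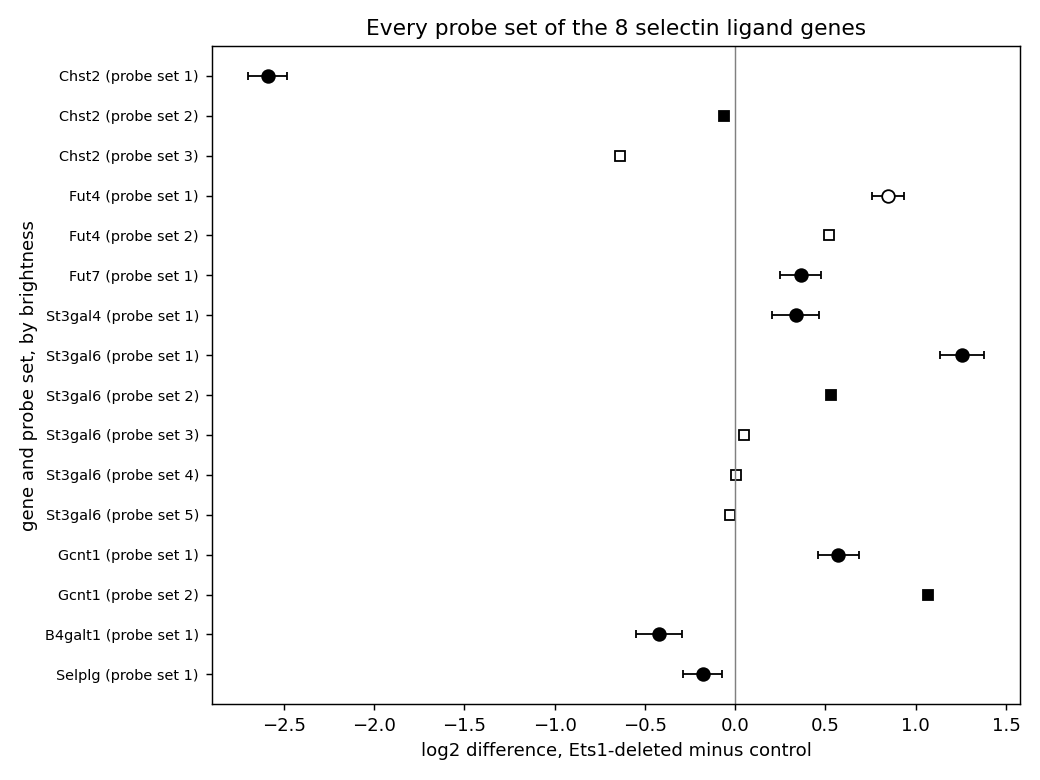
Log2 difference (x axis, Ets1-deleted minus control) of all 16 probe sets of the 8 genes, in order of brightness within a gene; circles are the brightest probe set with its SE, squares the others, and open symbols lie under the limit of 97.4. The Chst2 probe sets spread from -2.59 to -0.059 and those of St3gal6 from -0.028 to 1.26, while both Gcnt1 probe sets lie above 0.

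Of the 8 genes, the Ets1-deleted arrays were the higher for 5 and the lower for 3. Their median was 0.35, against -0.0037 over all tested genes. In all 8 the groups did not overlap, which also held for 62.6% of all tested genes. Since the set was built around this comparison, nothing is read from these counts. In RNA pooled from sorted cells, fewer cells with a transcript and less transcript per cell cannot be told apart. No label says whether 2 arrays of a group are separate mice or cultures, and p-values then measure a spread that may be technical.

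Selectin ligand genes are also used by granulocytes and T cells, of whose markers several were higher in the same arrays, although the cells had been sorted as ICOS-positive ILC2. Of all tested genes, 13.9% rose and 12.8% fell in limma at an adjusted p of 0.05. Of 16 myeloid and neutrophil markers on the array, 11 were tested, 1 of these only through its Ets1-deleted arrays. In limma 10 of the markers rose and 0 fell. Their summed intensity was 3001 to 3279 in the controls and 5386 to 5564 in the Ets1-deleted arrays, with Ctsg at 1.51 ± 0.12 and Fcgr3 at 1.18 ± 0.11, while Csf3r and Cd14 lay under the limit on all arrays. Of 13 T cell markers, 8 were tested, and 4 rose and 1 fell, with a sum of 5126 to 5205 against 7647 to 8100. The 1 that fell, named after its values were seen, was Zap70, at -1.13 ± 0.18. It read 285 and 334 in the controls against 111 and 178. Cd3e, a chain of the T cell receptor complex, was 3.28 ± 0.14 higher and its partner Cd247 3.11 ± 0.12, although the second Cd247 probe set gave -0.21. Of the 8 tested T cell markers, 2 reached the limit only through their Ets1-deleted arrays, Cd3e among them. Cd4, Cd8a, Cd8b1 and Cd5 were under the limit on all arrays. Of 13 mast cell and basophil markers, 9 were tested, 4 of these only through their Ets1-deleted arrays. Of the 9, 7 rose and 0 fell, with a sum over the 13 of 2581 to 2604 against 4187 to 4384. Cpa3 was 1 of those 4 and read 85.9 and 78.3 in the controls against 1497 and 1261, most of the rise in the sum. It rose by 4.07 ± 0.12 and Mcpt2 by 1.39 ± 0.11, and Fcer1a and Tpsab1 were under the limit on all arrays. Mcpt8, the brightest of the 13 in the controls and named after its values were seen, went the other way. It read 1337 and 1385 in the controls against 1097 and 1193, a difference of -0.25 ± 0.11 that was not called (limma, adjusted p = 0.121). The part of these cells in the higher Fut4, Fut7, St3gal6 and Gcnt1 values was not tested.

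Among 10 tested markers of OP9 stroma, 1 rose and 3 fell, so that 40% were called beside 26.7% of all tested genes. The sums were 3268 to 3479 in the controls and 3556 to 3570 in the Ets1-deleted arrays. Timp3 rose by 2.55 ± 0.13, from 126 and 152 to 879 and 751, so the higher sums rest on this 1 gene. The median difference of the 10 tested markers was -0.27. Pdgfrb fell by 0.85 ± 0.13, and Pdgfra, Lum, Dcn, Dll1 and Postn were under the limit on all arrays. Of 2 tested B cell markers, Cd79b fell by 2.12 ± 0.11 and Vpreb3 differed by 0.095, with sums of 839 to 847 against 552 to 562. Cd79b reached the limit only through its controls. Cd79a, Ms4a1, Pax5, Ebf1 and Blnk were under the limit on all arrays. Among the 13 ILC2 markers, 6 rose and 4 fell, Thy1 by 1.91 ± 0.11 upward and Klrg1 by 1.60 ± 0.11 downward, with sums of 23837 to 25660 against 29410 to 31650.

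The wider pathway went both ways. Of 107 further genes of sulfation, fucosylation, sialylation, O-glycan building and selectin ligand carriers, 104 were on the array and 78 were tested. In limma 20 rose and 16 fell, 46.2% of those tested beside 26.7% of all tested genes (13.9% higher and 12.8% lower), at an adjusted p of 0.05, and the median difference was -0.0066, beside -0.0037 over all tested genes. Without control 2, 10 fell, and 19 rose. Dim genes read farther apart once the 5th percentile of each array was taken off, with the direction and the limma call kept: Chst10 -2.69, B3galt2 -1.76, St6galnac3 -1.97, Chst15 2.28, Papss2 2.46, Cd34 1.49 and Podxl 1.02. The mean over probe sets was smaller than the value of the brightest for Fut8 (0.73), Galnt3 (0.86), Gcnt2 (0.60) and St6galnac3 (-0.35).

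In sulfation, 4 of 13 tested genes rose and 3 fell, with a median of -0.015. The 3 include Sulf2, a sulfatase gene whose enzyme removes sulfate, at -0.57 ± 0.12, named after its values were seen. Other sulfotransferases that act on N-acetylglucosamine, Chst4, Chst5 and Chst7, read 55.8 to 92.1 and lay under the limit on all arrays; these 3 were singled out after their values were seen. Chst11 and Chst15, which sulfate chondroitin, rose. Chst11 went from 255 and 259 to 857 and 741, by 1.63 ± 0.12 (limma, adjusted p = 7.75e-07). Chst15 went from 82.5 and 96.6 to 225 and 205, by 1.27 ± 0.12. Papss2, which makes the sulfate donor PAPS, rose from 81.0 and 95.6 to 245 and 214, by 1.38 ± 0.13 (limma, adjusted p = 6.32e-06). Chst15 and Papss2 reached the limit only through their Ets1-deleted arrays. Chst10, which sulfates the HNK-1 glycan, fell by 1.32 ± 0.12, from 175 and 175 to 63.3 and 77.8, and reached the limit only through its controls. Of the enzymes that sulfate tyrosine of PSGL-1, Tpst1 fell by 0.33 ± 0.11 (limma, adjusted p = 0.0453) and Tpst2 differed by -0.11 ± 0.12 (limma, adjusted p = 0.542). The Tpst1 call was lost without control 1 (-0.32, adjusted p = 0.177 in limma), control 2 (-0.34, adjusted p = 0.158 in limma) or Ets1-deleted 1 (-0.26, adjusted p = 0.19 in limma), and with each array centred on its median (-0.32, adjusted p = 0.0549 in limma).

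In fucosylation, 2 of 12 tested genes rose and 2 fell, with a median of -0.088. Those that fell include Fuca1, a fucosidase gene whose enzyme removes fucose, at -0.36 ± 0.11, named after its values were seen. Fut8, which adds the core fucose of N-glycans and no part of sialyl Lewis X, rose from 323 and 326 to 965 and 1137, by 1.69 ± 0.12 (limma, adjusted p = 6.87e-07), with 0.10 on its second probe set. Pofut2, which fucosylates thrombospondin repeats, rose by 0.63 ± 0.12 with all 4 of its probe sets between 0.59 and 0.63. Fut11 fell by 0.50 ± 0.15 (limma, adjusted p = 0.029), a call that was lost without control 1 (-0.27, adjusted p = 0.288 in limma) or Ets1-deleted 1 (-0.38, adjusted p = 0.122 in limma), and its second probe set gave -0.0013. The Fut11 call was also lost with no filter on dim genes (adjusted p = 0.0821 in limma), with the mean over probe sets (-0.23, adjusted p = 0.075 in limma) and after each array's floor was taken off (-0.63; limma, adjusted p = 0.0642).

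In sialylation, 6 of 18 tested genes rose and 5 fell, with a median of -0.086. These counts include sialidase genes, whose enzymes remove sialic acid. Of these, named after their values were seen, Neu3 rose by 0.54 ± 0.12 and Neu1 fell by 0.35 ± 0.11. St3gal1, which caps core 1 O-glycans and competes with Gcnt1 for the same acceptor, fell from 1317 and 1207 to 567 and 473. The St3gal1 difference was -1.28 ± 0.12 (limma, adjusted p = 9.7e-06), with -1.02 on its second probe set. St3gal2, which acts on the same kind of acceptor, fell by 1.07 ± 0.11, from 325 and 352 to 158 and 163. These moved opposite to St3gal6, whose acceptor is the lactosamine chain. St6galnac3, which reached the limit only through its controls, fell by 0.85 ± 0.12 and St6galnac6 rose by 0.86 ± 0.13. Cmas, which activates sialic acid, rose from 805 and 777 to 1400 and 1399, by 0.82 ± 0.11 (limma, adjusted p = 0.000125). Nanp, an enzyme of sialic acid synthesis, fell by 0.60 ± 0.14 (limma, adjusted p = 0.00894), and without Ets1-deleted 1 by 0.38 (adjusted p = 0.0631 in limma).

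In O-glycan cores and chain extension, 4 of 23 tested genes rose and 4 fell, with a median of -0.035. Galnt3 and Galnt12 start O-glycans by adding N-acetylgalactosamine. Galnt3 rose by 1.73 ± 0.12, from 172 and 201 to 621 and 613, and by 0.49 on the bright probe set that moved least. Galnt12 rose by 1.01 ± 0.13, and Galnt7, of the same family, fell by 0.76 ± 0.12, with -0.31 on its next probe set (limma, adjusted p = 0.0658). Gcnt2, a branching enzyme related to Gcnt1, rose by 1.10 ± 0.11 (limma, adjusted p = 1.8e-05), with 7 probe sets over the limit between 0.071 and 1.10. B3galt2, a galactosyltransferase gene, fell by 1.13 ± 0.16, from 294 and 212 to 128 and 101.

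Of 12 tested genes of selectins and other carriers of selectin ligands, 4 rose and 2 fell, with a median of 0.24. Cd44, a hyaluronan receptor that can carry selectin ligands, rose from 1031 and 1162 to 1701 and 1734, by 0.65 ± 0.11 (limma, adjusted p = 0.0011). Cd34 and Podxl, sialomucin genes, rose by 0.76 ± 0.16 and 0.62 ± 0.11, and Cd34 reached the limit only through its Ets1-deleted arrays. Without Ets1-deleted 1 the Cd34 difference was 0.48 (limma, adjusted p = 0.0168). The 2 that fell, named after their values were seen, were Spn and Snx20. Spn encodes the sialomucin CD43 and went from 4027 and 4000 to 2729 and 2939, by -0.50 ± 0.11 (limma, adjusted p = 0.00479), with -0.27 on its next probe set (limma, adjusted p = 0.119). Snx20, whose protein binds PSGL-1, went from 193 and 214 to 151 and 149, by -0.44 ± 0.11 (limma, adjusted p = 0.0121), and by -0.36 without control 2 (limma, adjusted p = 0.122).

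**Figure D3:**
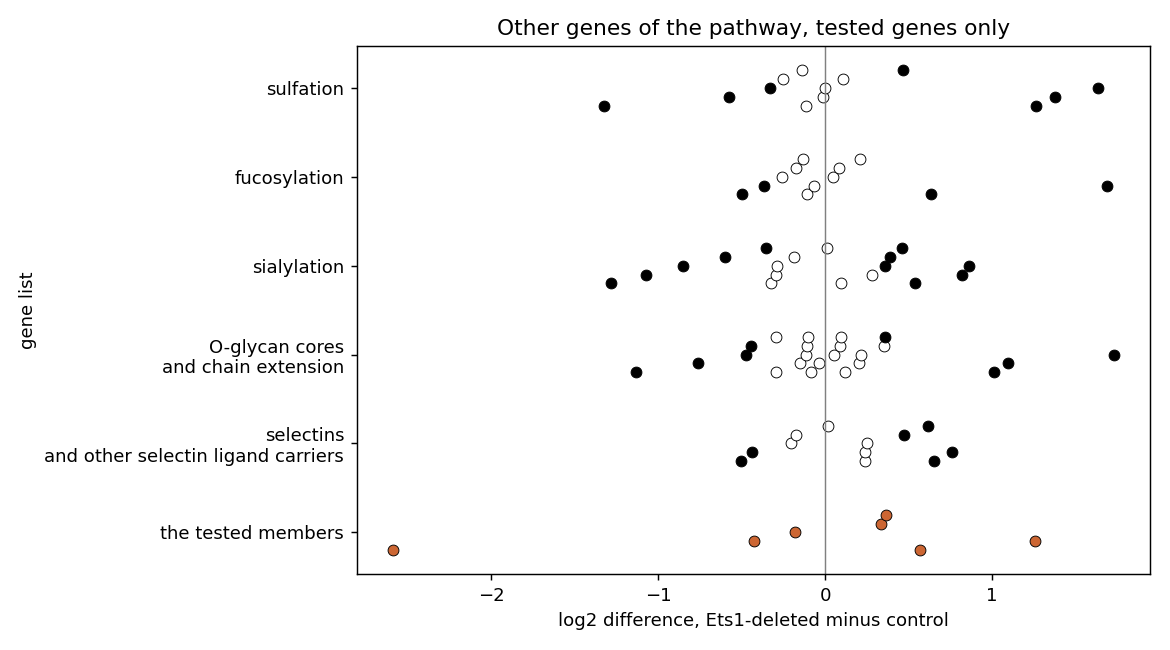
Log2 difference (x axis, Ets1-deleted minus control) of the 78 tested genes in 5 pathway lists. Orange points are Chst2 and the genes around it that reached the limit, 7 in all, drawn without a call. Filled black points passed an adjusted p of 0.05 in limma and open points did not. Vertical offsets within a row have no meaning. Each list holds genes on both sides of 0, and Chst2 at -2.59 lies lower than any gene of the lists.

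The genes most like Chst2 over the 4 arrays were sought by the distance between log2 values centred on each gene's own mean. The nearest 5 were Smpdl3a, a phosphodiesterase gene, at a distance of 0.16, then Actn2 (0.27), which encodes an actinin, Ifi209 (0.29), which interferon induces, Trib2 (0.32), which encodes a pseudokinase, and BC064078 (0.40). Smpdl3a read 1333 and 1417 in the controls and 214 and 243 in the Ets1-deleted arrays. With 4 arrays in 2 groups this measure mostly ranks genes by the size of their fall, and none of the 5 is a gene of the glycan pathway lists.

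**Figure D4:**
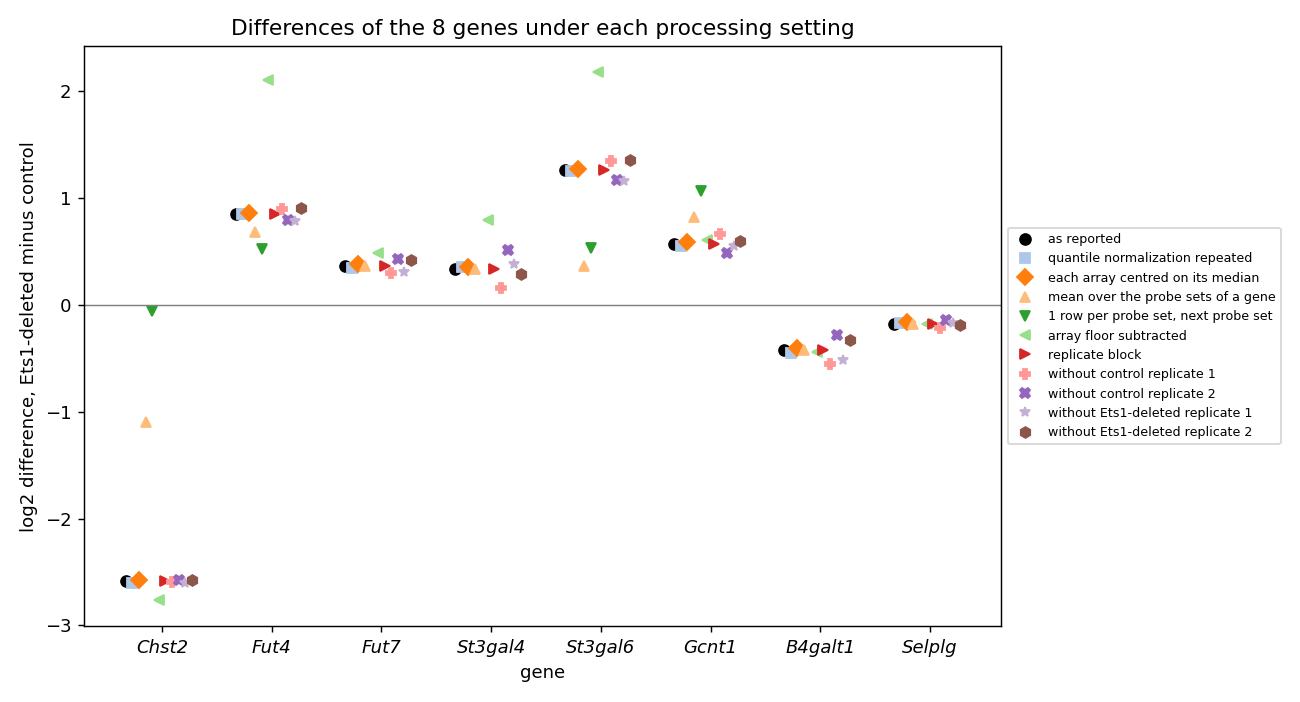
Log2 difference (y axis, Ets1-deleted minus control) of the 8 genes as reported (black circles) and under each other processing setting (coloured symbols). Every gene keeps its sign under the settings drawn, though leaving out 1 array or adding a replicate block could not turn it. Chst2 runs from -2.76 to -0.059 and Fut4 from 0.52 to 2.10, while Selplg runs from -0.22 to -0.14.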

How the data were processed

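RNA of sorted ILC2 was amplified, labelled with biotin and hybridised to Affymetrix arrays, per the labels' protocols. The deposited intensity values were made by the authors with RMA, which corrects background, normalizes by quantiles and summarises probes; the submitters' processing notes name RMA without a version or software. RMA often gives log2, but the values run from 39.5 to 23291 and were read as linear, then turned into log2. Such summaries flatten near the floor, which understates the fold of dim genes.

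Of 45101 probe sets, 34958 had 1 gene symbol in the platform annotation. Each of 18194 genes was read from its brightest probe set, and 10873 reached the median of all probe sets (97.4). limma 3.58.1 in R 4.3.3 (lmFit, eBayes; 2 residual and 9.75 prior degrees of freedom) compared all 4 arrays, by two-sided tests, calling a gene at 0.05 after Benjamini-Hochberg adjustment across the tested genes. The fit was also run on simulated normal data drawn with its own shared variances, so that run cannot check the sharing of variance. With 2 arrays a group, the smallest p of an exact permutation test is 0.333.

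The members and lists were chosen with earlier results of these data known. Named were all members, Ets1, from each pathway list the genes called at 1.5-fold or more and the 3 of smallest p, Tpst1 and Tpst2, the 5 genes most like Chst2 and the 2 markers of largest difference per cell type. Alternatives were renormalization, median centring, other filters on dim genes, other uses of probe sets, subtraction of the array floor (5th percentile, lowest value 16), a replicate block, other variances and leaving out each array. RefSeq promoter windows matched 7 of the 8 genes; where windows on opposite strands overlapped, 1683 of 1683 were reverse complements.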

Additional observations from a re-analysis of the deposited data

How the results depend on the processing

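Every one of the 8 genes kept the sign of its difference in all 76 values from the 10 other settings tried for them. Much of this was fixed beforehand. Where groups do not overlap, leaving out 1 array cannot turn the sign, and the replicate block leaves the difference as it was. For a gene with 1 probe set the mean over probe sets is the same value. The dimmest St3gal6 probe set, at -0.028, was not a setting of its own. Chst2 went from -2.59 to -1.10 with the mean over its probe sets, to -0.059 on its next probe set and to -2.76 with the array floor subtracted; leaving out any 1 array gave -2.61 to -2.57. With 1 row per probe set, 4797 were called (2550 higher, 2247 lower) in place of 2900 genes, and 64 of the pathway lists (39 higher, 25 lower) in place of 36. The stricter filter on dim genes left 10 pathway genes called lower in place of 16, as fewer were tested. Leaving out 1 array gave 10 to 14 pathway genes called lower; the fit then takes the spread of the single array from the group that has 2. With each gene's own variance, 13 genes were called (7 higher, 6 lower), with 0 pathway genes (0 higher, 0 lower), against 36 in the main limma fit. In that own-variance fit an unadjusted p under 0.05 was found for 26 of the 78 pathway genes and for 2607 of all 10873 tested genes. The counts therefore rest on variance shared across genes. Among the other genes named, Cd247 reversed on its next probe set (-0.21), and Tpst2, which was not called, ran from -0.24 to 0.015 with 1 array left out, positive without control 2. The replicate number as a block gave 3252 called genes and 36 pathway genes; same-numbered arrays' deviations correlated at 0.17, but no label says that the numbers pair the arrays. The number of arrays and signal near the floor limit Fut4, St3gal4 and St3gal6.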

Other observations

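The genes beside Chst2 on chromosome 9 were looked up after the values were seen. Among the 5 tested genes on each side of it in the annotation order of GRCm38.p6, 6 rose and 1 fell in limma at an adjusted p of 0.05, with differences between -0.38 and 1.34. The 6 that rose moved opposite to Chst2, and among them Plscr4 and Pcolce2 reached the limit only through their Ets1-deleted arrays. Plscr1, a phospholipid scramblase gene, had control values of 239 and 224 and Ets1-deleted values of 587 and 586 and rose by 1.34 ± 0.11, and Plod2, a lysyl hydroxylase gene, from 306 and 318 to 599 and 635, by 0.98 ± 0.11. Of all 626 tested genes on that chromosome, which also holds Ets1, 25.7% were called, against 26.7% of all tested genes.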
